A study of Mus musculus with 24 samples.

Results

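Olfml3, Tmem119, Gpr34, Slco2b1 and Cx3cr1 are genes that microglia, the resident macrophages of the brain, express strongly and that are used to tell them from other macrophages. They were followed here in macrophages grown from bone marrow, as 5 of the 11590 genes of the deposited count table. The 5 genes were chosen by name, after a large difference of Olfml3 between LPA-treated and untreated GPR35-deficient cells had been seen in these same libraries. Which other values played a part in the choice is not recorded. The comparisons that contain LPA-treated GPR35-deficient cells are therefore given for these genes as descriptions, with no test, and the other 6 comparisons are tested over all genes. For Olfml3 the comparisons that use the untreated GPR35-deficient cells are descriptions as well, since the same libraries entered the difference that led to the choice. All 5 symbols were found, and none of the 5 rows was lost to a filter on low counts.

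The study asked how lysophosphatidic acid (LPA), a bioactive lipid, acts on macrophages through the G protein-coupled receptor GPR35. The cells were bone marrow-derived macrophages (BMDMs) of male C57BL/6 mice, differentiated in adherent culture with M-CSF, and carried either the wild-type genotype (WT) or a GPR35-deficient one (KO). On day 7 they received 10 µM LPA, 10 ng/mL bacterial lipopolysaccharide (LPS) or nothing (Cont) for 4 h, which gives the 6 groups WT Cont, WT LPA, WT LPS, KO Cont, KO LPA and KO LPS with 4 replicates each. The labels do not say how the KO allele was made, nor whether replicates came from separate mice or cultures, so a p-value measures the spread between these libraries, which may be technical. Bulk RNA cannot separate fewer cells that express a gene from less RNA of it per cell.

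Microglia are kept in a resting, tissue-specific state by CSF1R ligands and by TGF-beta from the brain, and they lower many of their marker genes when inflammatory signals reach them. Cx3cr1 encodes the receptor for the chemokine fractalkine and is also expressed by monocytes. Gpr34 encodes a receptor for lysophosphatidylserine, another lysophospholipid. Slco2b1 encodes an organic anion transporter, Tmem119 a transmembrane protein that osteoblasts also make, and Olfml3 a secreted glycoprotein of the olfactomedin family that stromal cells also make. BMDMs develop without the brain's signals, so the genes are not defining markers of these cells.

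RefSeq places the 5 genes on GRCm38.p6, of which mm10 is another name. All lie on different chromosomes. Olfml3 spans chr3:103735394-103738001 and Tmem119 spans chr5:113793729-113800396, both on the minus strand. Slco2b1 spans chr7:99657804-99711340 and Cx3cr1 spans chr9:120048683-120068296, also on the minus strand. Gpr34 spans chrX:13622650-13640859 on the plus strand and lies inside Cask, which runs the other way from 13517080 to 13851367. Promoter sequences from the RefSeq table (GRCm38.p6) matched 3 of the 5 genes. They were searched on both strands for GAGGAAG, a core motif of the macrophage factor PU.1, for TGANTCA, the motif of AP-1, which equals its own reverse complement, for CAGACA of SMAD factors, and for TGCTGAC of MAF factors. The windows ran from 250 bases before the start site to 30 bases into the transcript. Among all 32851 promoters of the table cut to these 280 bases, 12.2% held GAGGAAG, 7.46% TGANTCA, 19.6% CAGACA, 4.32% TGCTGAC, and 0.837% both GAGGAAG and TGANTCA. The promoters of the 3 matched genes are shown, so that the gene with the deepest fall under LPS among them can be set beside the other two: Slco2b1 at its first start site (chr7:99711311-99711590, minus strand), Olfml3 (chr3:103737972-103738251, minus strand) and Cx3cr1 (chr9:120068267-120068546, minus strand). Each reads 5′ to 3′, and capitals mark motif letters.
Slco2b1: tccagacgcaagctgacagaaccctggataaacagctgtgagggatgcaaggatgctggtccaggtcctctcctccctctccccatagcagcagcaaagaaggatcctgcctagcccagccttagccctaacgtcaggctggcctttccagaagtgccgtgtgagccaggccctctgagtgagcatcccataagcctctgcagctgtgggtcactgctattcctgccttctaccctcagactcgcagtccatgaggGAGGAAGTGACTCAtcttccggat
Olfml3: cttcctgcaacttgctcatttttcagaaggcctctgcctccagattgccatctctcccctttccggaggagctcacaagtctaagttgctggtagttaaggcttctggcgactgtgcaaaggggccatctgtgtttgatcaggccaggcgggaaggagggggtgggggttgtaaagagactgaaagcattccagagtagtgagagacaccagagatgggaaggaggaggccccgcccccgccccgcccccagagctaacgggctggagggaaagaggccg
Cx3cr1: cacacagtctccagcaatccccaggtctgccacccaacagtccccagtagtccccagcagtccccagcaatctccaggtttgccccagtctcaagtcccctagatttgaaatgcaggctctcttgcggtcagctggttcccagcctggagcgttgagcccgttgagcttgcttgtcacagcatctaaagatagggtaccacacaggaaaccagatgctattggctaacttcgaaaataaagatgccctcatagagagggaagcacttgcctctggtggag
In Slco2b1 the capitals hold GAGGAAG at bases 7 to 13 after the start site, followed without a gap by TGACTCA, a match to TGANTCA, at bases 14 to 20. Of the other start sites of Slco2b1, promoter 3 of the table (chr7:99695780-99696059) had GAGGAAG at 226 to 220 bases before it, and promoter 2 (chr7:99706813-99707092) had none of the 4 motifs. None of them was found in the Olfml3 and Cx3cr1 windows. A match of letters is a description and not evidence that a factor binds there.

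Library depth was 31.99 to 46.7 M counts in WT and 15.2 to 21.5 M in KO, and the labels put each WT library on 2 sequencing lanes and each KO library on 1, so lane and genotype cannot be told apart. Gpr35 itself averaged 2.60, 2.07 and 0.417 CPM (counts scaled to library size, with TMM factors) in WT Cont, LPA and LPS, against 0.133, 0.110 and 0 in the same KO groups, so every KO group was below its WT group. The 10 macrophage markers examined summed to 31500 to 48010 CPM in every library. WT LPA replicate 3 moved less from the untreated state than the other WT LPA libraries in Gpr34. Against the same-numbered untreated library its log2 change was also the smallest in Slco2b1 (-1.40), but the largest in Olfml3 (1.81) and Cx3cr1 (1.64). Without it 6083 genes in place of 5165 were called for LPA in WT. The number was lower without replicate 2 (3792) or without replicate 1 (4049). Values without replicate 3 are given beside the results on WT LPA that it moves.

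Scaled to gene length, the 5 genes were at moderate to low levels and their order turned over with treatment. In WT Cont, Gpr34 stood at 19.99 ± 3.25 CPM per kb (SD, n = 4), Slco2b1 at 10.1 ± 0.754, Cx3cr1 at 5.24 ± 1.45, Olfml3 at 4.203 ± 1.80 and Tmem119 at 0.628 ± 0.0747. Gpr34 lay above 72.7% of all genes on this scale and Tmem119 above 7.29%, while Cx3cr1 and Olfml3 did not differ beyond their spread. In WT LPA the order was Cx3cr1 (10.5 ± 5.85), Olfml3 (9.53 ± 0.650), Gpr34 (6.67 ± 5.68), Slco2b1 (2.97 ± 0.703) and Tmem119 (1.39 ± 0.227), in CPM per kb, and Cx3cr1, Olfml3 and Gpr34 overlapped within their SD. In WT LPS, Olfml3 led with 1.22 ± 0.263 CPM per kb, followed by Cx3cr1 with 0.818 ± 0.0948 and Tmem119 with 0.605 ± 0.165, and Gpr34 (0.281 ± 0.0304) and Slco2b1 (0.191 ± 0.0611) came last. KO Cont kept the WT Cont order, from Gpr34 at 19.9 ± 3.91 to Tmem119 at 0.569 ± 0.0499 CPM per kb. KO LPA differed from WT LPA in its order: Gpr34 was first at 20.4 ± 1.65 CPM per kb, then Olfml3 at 12.6 ± 1.46, Slco2b1 at 10.2 ± 1.66, Cx3cr1 at 8.78 ± 4.12 and Tmem119 at 1.07 ± 0.362, with Olfml3, Slco2b1 and Cx3cr1 within each other's SD or next to it. KO LPS gave Olfml3 1.46 ± 0.313, Cx3cr1 0.993 ± 0.781, Tmem119 0.794 ± 0.0534, Gpr34 0.348 ± 0.198 and Slco2b1 0.211 ± 0.0474 CPM per kb, the same order of means as WT LPS. The order under LPS is not resolved throughout. In KO LPS the SD of Cx3cr1 overlapped that of every other gene, and those of Gpr34 and Slco2b1 overlapped. In WT LPS those of Cx3cr1 and Tmem119 overlapped.

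**Figure D1:**
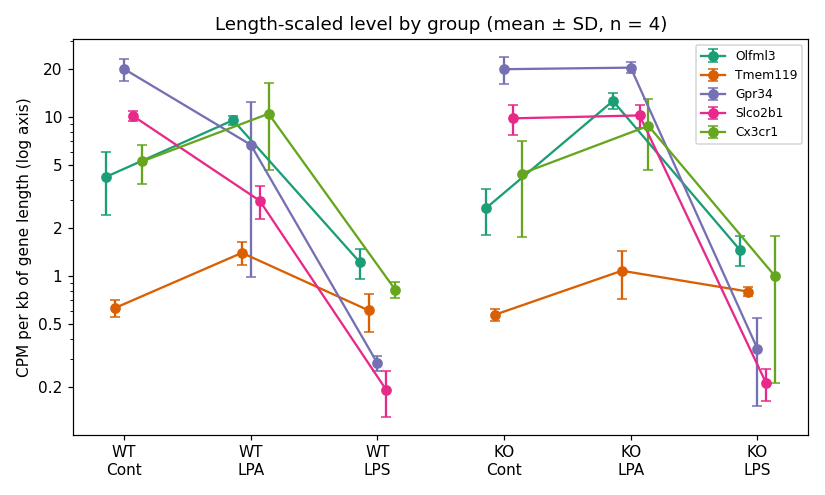
Mean level of each gene in CPM per kb of gene length (log axis) in the 6 groups, with the SD over 4 libraries as bars and lines joining groups of 1 genotype. Gpr34 leads in untreated cells of both genotypes (19.99 and 19.9), follows Cx3cr1 and Olfml3 in WT LPA (6.67), and is first again in KO LPA (20.4).

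Of the 5 genes, LPA raised 2 and lowered 2 in WT cells, and with the replicate number as a block, which pairs these libraries, it raised 3 and lowered 2, the third being Cx3cr1. LPS lowered 4 of the 5 in WT, and in KO 3 of the 4 genes other than Olfml3. The counts were 4 of 5 called for LPA in WT (edgeR adjusted p below 0.05), where 44.6% of all genes were called (23.5% rose and 21.1% fell). With the block 6150 of the 11590 genes were called there (3123 rose and 3027 fell). Without WT LPA replicate 3 the number was 6083 (3123 rose and 2960 fell). List counts given below for LPA in WT under these settings stand beside those numbers. For LPS the counts were 4 of 5 in WT against 84.2% of all genes (40.6% rose, 43.6% fell), and 3 of 4 in KO against 82.3% (39.3% rose, 43.0% fell). The counts under LPS are thus near the share of the whole table. LPA and LPS comparisons of a genotype share the same untreated libraries.

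**Figure D2:**
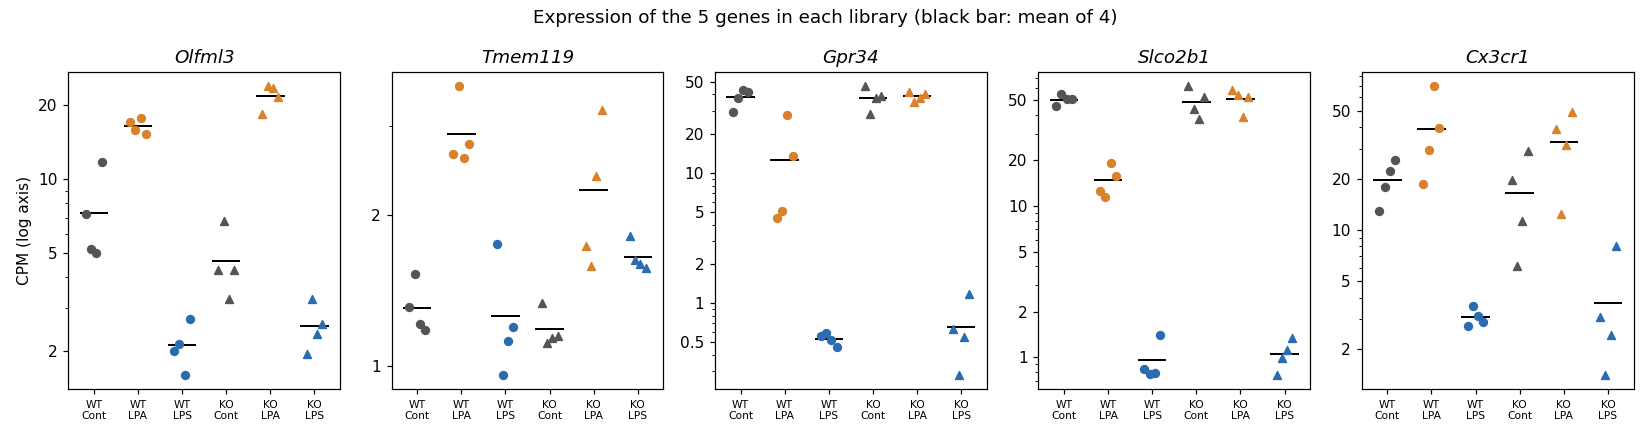
CPM of each gene (log axis) in all 24 libraries by group, circles for WT and triangles for KO, with a black bar at the mean of 4. The 4 WT LPA libraries of Slco2b1 sit between 11.5 and 19.3 CPM, below the 37.5 to 61.8 CPM of all untreated libraries and the 39.0 to 58.1 CPM of KO LPA.

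Slco2b1, the transporter, fell with LPA in WT cells, was at its untreated level in KO LPA, and fell to about 1 CPM with LPS in both genotypes. It measured 45.5, 54.6, 51.1 and 50.8 CPM in WT Cont and 12.6, 11.5, 19.3 and 15.8 CPM in WT LPA. The WT LPA libraries were all below the WT Cont libraries with a wide gap. Slco2b1 fell by 1.77 ± 0.16 (SE) on the log2 scale with LPA in WT, a 3.42-fold drop (edgeR adjusted p = 7.76e-08).

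In KO Cont, Slco2b1 measured 61.8, 43.7, 37.5 and 52.2 CPM, and in KO LPA 58.1, 53.8, 39.0 and 52.7 CPM. These 2 groups overlapped throughout, with a log2 difference of 0.06 ± 0.15. The LPA effect was larger by 1.83 ± 0.22 in KO than in WT on the log2 scale (KO minus WT, a less negative change in KO), and KO LPA libraries all lay above WT LPA libraries (log2 difference 1.79 ± 0.16). The LPA effect of the 2 genotypes differed in 28.5% of all genes (12.7% higher in KO, 15.8% lower), which is printed for reference since the choice of these genes drew on KO LPA libraries.

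With LPS, Slco2b1 measured 0.841, 0.777, 0.785 and 1.41 CPM in WT and 0.767, 0.989, 1.11 and 1.33 CPM in KO. Each of these 8 libraries was far below every untreated one. The fall was 5.72 ± 0.23 on the log2 scale in WT, or 52.6-fold (edgeR adjusted p = 9.64e-16), and 5.54 ± 0.25 in KO, or 46.7-fold (edgeR adjusted p = 1.43e-14). These values rest on 21 to 40 counts per library in WT LPS and 11 to 17 in KO LPS. The antisense genes Gm15635 and Gm34280 overlap Slco2b1, and the strand setting of the counting is not stated, so reads of the antisense genes cannot be told apart from its own.

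Gpr34, the lysophosphatidylserine receptor, followed Slco2b1 across groups but with a wide spread among WT LPA libraries. Gpr34 measured 29.3, 37.7, 43.0 and 41.7 CPM in WT Cont and 4.49, 5.06, 27.6 and 13.4 CPM in WT LPA. Replicate 3 came within 2 CPM of the lowest untreated library, while replicates 1 and 2 were far lower, and the groups did not overlap. The fall was 1.60 ± 0.35 on the log2 scale, or 3.03-fold (edgeR adjusted p = 0.00137). Without WT LPA replicate 3, which was singled out by its Gpr34 value, the log2 change was -2.31 ± 0.27, given with no test. Without replicate 1 it was -1.31 ± 0.32 (edgeR adjusted p = 0.00457).

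In KO cells, Gpr34 measured 46.2, 28.2, 37.7 and 39.3 CPM untreated and 41.9, 34.9, 37.5 and 40.6 CPM with LPA. The 2 KO groups overlapped and the log2 difference was 0.03 ± 0.35. KO LPA libraries were all above WT LPA libraries, by a log2 difference of 1.63 ± 0.36. This became 2.34 ± 0.27 without WT LPA replicate 3 and 1.34 ± 0.33 without replicate 1. The LPA effect differed by 1.63 ± 0.50 (KO minus WT), by 2.34 ± 0.35 without replicate 3 and by 1.34 ± 0.43 without replicate 1.

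With LPS, Gpr34 measured 0.561, 0.592, 0.523 and 0.458 CPM in WT and 0.628, 0.283, 0.555 and 1.18 CPM in KO. All 8 libraries were far below the untreated ones, at 13 to 16 counts each in WT and 4 to 15 counts in KO. Gpr34 fell by 6.14 ± 0.55 on the log2 scale in WT, or 70.6-fold (edgeR adjusted p = 1.55e-09), and by 5.86 ± 0.62 in KO, or 58.2-fold (edgeR adjusted p = 2.15e-08). Cask, the gene on the other strand around Gpr34, moved otherwise: its log2 change was 0.01 ± 0.07 with LPA in WT and 1.02 ± 0.07 with LPS in WT.

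Cx3cr1, the fractalkine receptor, was lowered by LPS in both genotypes, and its level with LPA was higher than untreated in every pair of same-numbered libraries, with a call in WT that depends on the pairing. Cx3cr1 measured 12.9, 17.9, 22.2 and 25.5 CPM in WT Cont and 18.5, 29.3, 69.6 and 39.7 CPM in WT LPA. The groups overlapped, since WT LPA replicate 1 lay below WT Cont replicates 3 and 4. The log2 change was 1.00 ± 0.44 (edgeR adjusted p = 0.0684), and with the replicate number as a block 0.90 ± 0.18 (edgeR adjusted p = 0.000671). Same-numbered WT Cont and WT LPA libraries deviated together over all genes (correlation 0.211 to 0.626 in the 4 pairs), so the numbers pair them. Without WT LPA replicate 3 the unblocked log2 change was 0.57 ± 0.43 (edgeR adjusted p = 0.278), and without replicate 1 it was 1.23 ± 0.44 (edgeR adjusted p = 0.0367).

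Pair by pair, the log2 change of Cx3cr1 with LPA was 0.52, 0.71, 1.64 and 0.64 in WT replicates 1 to 4. In KO the 4 values were 0.98, 1.01, 1.47 and 0.76. KO Cont measured 19.7, 6.13, 11.3 and 28.9 CPM and KO LPA 38.9, 12.4, 31.5 and 49.0 CPM, with replicate 2 the lowest and replicate 4 the highest in each group. The KO groups overlapped, and the log2 difference was 0.99 ± 0.46, or 1.05 ± 0.20 with the block. The LPA effect in KO minus that in WT was -0.01 ± 0.63 on the log2 scale.

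Cx3cr1 with LPS measured 2.73, 3.55, 3.10 and 2.89 CPM in WT and 3.07, 1.41, 2.43 and 8.00 CPM in KO. In WT all were below the untreated libraries, while KO LPS replicate 4 lay above KO Cont replicate 2. Cx3cr1 fell by 2.68 ± 0.53 on the log2 scale in WT, or 6.39-fold (edgeR adjusted p = 0.000103), and by 2.19 ± 0.60 in KO, or 4.57-fold (edgeR adjusted p = 0.00212).

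**Figure D3:**
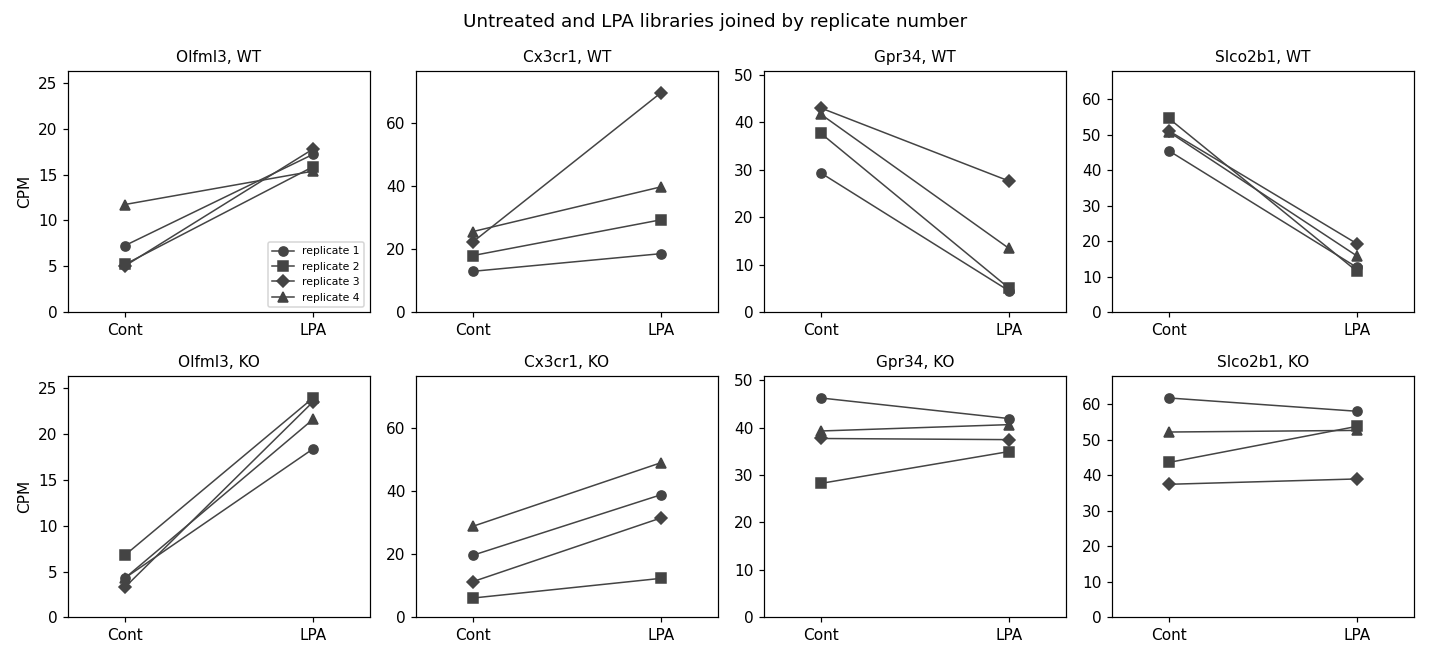
CPM of Olfml3, Cx3cr1, Gpr34 and Slco2b1 in untreated and LPA-treated libraries, lines joining libraries with the same replicate number, WT above and KO below, each gene on 1 scale from 0. Cx3cr1 is higher with LPA in all 8 pairs, and Gpr34 and Slco2b1 are lower with LPA in all 4 WT pairs, while in the KO pairs their lines run near level in either direction.

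Tmem119, the transmembrane protein, was the lowest of the 5 in untreated cells and the one gene of the 5 not called with LPS, apart from the scaling and fits named below. It measured 1.31, 1.52, 1.21 and 1.18 CPM in WT Cont and 2.64, 3.60, 2.59 and 2.76 CPM in WT LPA. All WT LPA libraries were above all WT Cont libraries. Tmem119 rose by 1.14 ± 0.18 on the log2 scale, or 2.21-fold (edgeR adjusted p = 4.57e-05), from 47 to 80 counts per untreated library to 93 to 143.

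KO Cont libraries gave 1.34, 1.11, 1.14 and 1.15 CPM of Tmem119, and KO LPA libraries 1.73, 1.58, 2.38 and 3.23 CPM. The KO LPA libraries lay above the KO Cont ones, replicates 3 and 4 by most, with a log2 difference of 0.92 ± 0.21. These values rest on 21 to 30 counts per library in KO Cont and 28 to 68 in KO LPA. The LPA effect in KO minus that in WT was -0.22 ± 0.28, and the difference between KO LPA and WT LPA was -0.37 ± 0.19, with ranges that overlapped.

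With LPS, Tmem119 measured 1.75, 0.962, 1.12 and 1.20 CPM in WT and 1.81, 1.63, 1.59 and 1.57 CPM in KO. The WT values overlapped the untreated ones, with a log2 change of -0.06 ± 0.20 (edgeR adjusted p = 0.802, 95% interval -0.47 to 0.36). The KO LPS libraries, at 20 to 26 counts each, all lay above the KO Cont libraries. The log2 change was 0.48 ± 0.23 and did not pass the test (edgeR adjusted p = 0.0599). In KO the value passed with RLE factors (0.51, edgeR adjusted p = 0.0437), with a fit of the compared groups only (0.47, edgeR adjusted p = 0.0346) and with thinned counts (0.56, edgeR adjusted p = 0.0333). Both values depend on the scaling: with library totals in place of TMM, which moved the median of all genes under LPS by -0.593 in WT and -0.547 in KO on the log2 scale, Tmem119 was at -0.61 in WT (edgeR adjusted p = 0.00802) and -0.02 in KO. Relative to the median of all genes the gene thus stood close to 0 in WT on either scale.

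Olfml3, the secreted glycoprotein, rose with LPA and fell with LPS in WT cells, and its level in KO LPA was the highest of the 6 groups. It measured 7.24, 5.20, 5.02 and 11.7 CPM in WT Cont and 17.2, 15.9, 17.8 and 15.4 CPM in WT LPA. The WT LPA libraries lay close together and above every WT Cont library, of which replicate 4 was the highest. Olfml3 rose by 1.19 ± 0.21 on the log2 scale, or 2.27-fold (edgeR adjusted p = 0.000163).

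In KO, Olfml3 measured 4.28, 6.77, 3.27 and 4.26 CPM untreated and 18.4, 23.9, 23.5 and 21.6 CPM with LPA, the values by which the set was chosen. All KO LPA libraries lay above all WT LPA libraries as well. The log2 difference between KO LPA and KO Cont was 2.24 ± 0.23, or 4.73-fold, and that between KO LPA and WT LPA was 0.40 ± 0.21. The LPA effect was 1.06 ± 0.31 larger in KO than in WT on the log2 scale. That value holds both the 0.40 between LPA-treated cells and the difference of KO Cont from WT Cont, -0.66 ± 0.23, whose ranges overlapped.

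With LPS, Olfml3 measured 2.00, 2.15, 1.61 and 2.71 CPM in WT and 1.95, 3.25, 2.36 and 2.59 CPM in KO. The LPS libraries were below the untreated ones in each genotype. Olfml3 fell by 1.78 ± 0.24 on the log2 scale in WT, or 3.43-fold (edgeR adjusted p = 6.59e-07), and the log2 difference in KO, given with no test, was -0.86 ± 0.28. The LPS effect in KO minus that in WT was 0.91 ± 0.38, also with no test.

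**Figure D4:**
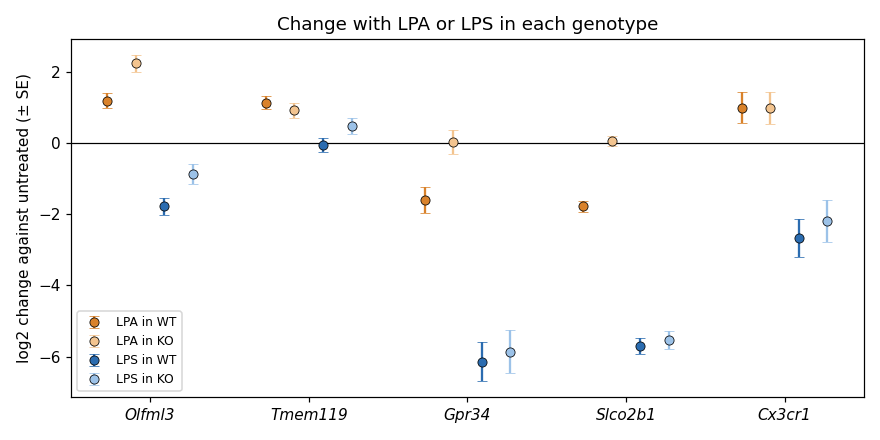
Log2 change of each gene against untreated cells of the same genotype, with its SE, for LPA and LPS in WT and KO. Gpr34 and Slco2b1 are at -1.60 and -1.77 with LPA in WT and at 0.03 and 0.06 in KO. Tmem119 is at 1.14 in WT and 0.92 in KO with LPA, and Cx3cr1 at 1.00 and 0.99, with SE bars that overlap between the genotypes.

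Between genotypes, no gene of the set that could be tested was called. In untreated cells 0 of the 4 genes other than Olfml3 passed by edgeR, by DESeq2 or at an unadjusted p below 0.05, and 0.00863% of all genes, a single gene, was called. The log2 differences of Tmem119, Gpr34, Slco2b1 and Cx3cr1 in KO Cont against WT Cont were -0.15 ± 0.21, 0.00 ± 0.34, -0.05 ± 0.15 and -0.23 ± 0.45. Under LPS 0 of 5 passed by edgeR, by DESeq2 (which gave Tmem119 no adjusted p) or at an unadjusted p below 0.05, where 2.85% of all genes were called. The 95% interval there ran from -2.07 to 2.63 for Gpr34, with 4 to 16 counts per library, and from -1.19 to 1.70 for Cx3cr1, whose KO LPS libraries spread from 1.41 to 8.00 CPM. For the difference of the LPS effects 0 of the 4 genes other than Olfml3 passed by edgeR, by DESeq2 or at an unadjusted p below 0.05, with 0% of all genes called by edgeR, 698 genes at an unadjusted p below 0.05 and 17 called by DESeq2.

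Ratios within a library do not depend on its scaling. The per-kb ratio of Cx3cr1 to Gpr34 was 0.223 to 0.309 in WT Cont and 1.27 to 2.93 in WT LPA, so the more abundant receptor changed over. In KO the same ratio was 0.110 to 0.372 untreated and 0.179 to 0.611 with LPA, with Gpr34 the more abundant in all 8 libraries, and under LPS it was 2.21 to 3.44. The per-kb ratio of Olfml3 to Slco2b1 went from 0.273 to 0.663 in WT Cont to 2.65 to 3.96 in WT LPA, and from 0.199 to 0.445 in KO Cont to 0.909 to 1.73 in KO LPA. Slco2b1 and Gpr34 kept a ratio of 0.452 to 0.590 in WT Cont and 0.379 to 0.589 in KO Cont, and spread to 0.266 to 1.07 in WT LPA.

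The likeness of 2 genes was measured as the root mean square difference of their centred log2 CPM over the 24 libraries, where 0 would be an identical pattern. Among the 10 pairs of the 5 genes, Gpr34 and Slco2b1 were the most alike at 0.484, followed by Olfml3 and Cx3cr1 at 0.944, and Tmem119 and Gpr34 were the least alike at 2.70. Over all genes of the table, those nearest to Gpr34 were Fam214a (0.360), Rnf150 (0.431), which encodes a RING finger protein, and Slco2b1. Rnf150 averaged 130 ± 10.8 CPM in WT Cont, 36.5 ± 19.1 in WT LPA, 1.88 ± 0.366 in WT LPS and 155 ± 8.22 in KO LPA. Nearest to Slco2b1 were Arhgap19 (0.284), Lpin1 (0.313), the phosphatidate phosphatase lipin 1, and Engase (0.321). Lpin1 averaged 51.0 ± 5.48, 24.5 ± 10.3 and 1.00 ± 0.223 CPM in WT Cont, LPA and LPS.

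Nearest to Olfml3 were Pald1 (0.466), Cgnl1 (0.518) and Chst3 (0.573), the last a carbohydrate sulfotransferase. Pald1 averaged 11.1 ± 3.37 CPM in WT Cont, 16.0 ± 3.46 in WT LPA, 7.64 ± 0.511 in KO Cont and 22.6 ± 2.87 in KO LPA. Nearest to Tmem119 were Prkar2b (0.321), a regulatory subunit of protein kinase A, Tpi1 (0.351), a glycolytic enzyme, and 2210408F21Rik (0.353), at distances not much below the SD of Tmem119 itself over the libraries (0.505). Nearest to Cx3cr1 were Arhgef39 (0.562), Bub1b (0.642), a mitotic checkpoint kinase, and Tk1 (0.666), the thymidine kinase of dividing cells. Bub1b averaged 17.7 ± 9.16 CPM in WT Cont and 16.0 ± 8.16 in WT LPA, with no difference beyond the spread, and 2.80 ± 0.759 in WT LPS. None of these 3 stayed among the nearest to Cx3cr1 when the 6 group means were used in place of the 24 libraries.

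Other genes of resting microglia were taken as a list of 32, of which 29 were in the table, not counting the 5 genes above. This list and those that follow were chosen with earlier results of these data known. Their counts are therefore descriptions and not a test of a set. With LPA in WT, 13 of the 29 fell and 1 rose (13 and 0 without WT LPA replicate 3), 14 in all against 44.6% of all genes called, and 13 falls against 21.1%. The list had a median log2 change of -0.249 against -0.00655 for all genes. Gas6, which bridges phosphatidylserine on dying cells to the TAM receptors of phagocytes, went from 373 ± 23.0 to 192 ± 14.6 CPM, a log2 change of -0.96 ± 0.09 (edgeR adjusted p = 5.3e-08). Its receptor Mertk had -0.65 ± 0.09 (edgeR adjusted p = 1.72e-05), the ectonucleotidase Entpd1 -0.81 ± 0.11 (edgeR adjusted p = 1.49e-05), and Rgs10, a regulator of G protein signalling, -0.68 ± 0.08 (edgeR adjusted p = 2.86e-06). The 1 gene that rose was Tgfbr1, a TGF-beta receptor (log2 change 0.27 ± 0.10, edgeR adjusted p = 0.034), named here after its value was seen.

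In KO cells LPA called 2 of the 29, against 2.62% of all genes (1.56% rose and 1.06% fell): Tgfbr1 rose by 0.66 ± 0.10 on the log2 scale (edgeR adjusted p = 0.000486) and the transcription factor Maf fell by 0.21 ± 0.06 (edgeR adjusted p = 0.0471). With the replicate number as a block, where the KO libraries also deviated together by number (correlation 0.114 to 0.772), 8 of the 29 were called, 4 in each direction. That block called 554 of the 11590 genes (307 rose and 247 fell). The LPA effect itself was higher in KO than in WT in 10 of the 29 and lower in 1, with a median difference of 0.284 against 0.00668 for all genes, in 16 and 1 with the block, and in 13 and 1 without WT LPA replicate 3. Of all genes 28.5% were called there in the main fit, 12.7% higher and 15.8% lower in KO. The block called 4328 of the 11590 genes (2044 higher and 2284 lower). Without WT LPA replicate 3 the number was 4632 (2184 higher and 2448 lower). For Entpd1 the difference was 1.23 ± 0.16 (edgeR adjusted p = 3.3e-05), with 239 ± 39.5 CPM in KO Cont and 319 ± 23.1 in KO LPA. For Gas6 it was 0.66 ± 0.12 (edgeR adjusted p = 0.000533), for Mertk 0.65 ± 0.13 (edgeR adjusted p = 0.00149) and for Rgs10 0.63 ± 0.12 (edgeR adjusted p = 0.000856).

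With LPS, 19 of the 29 fell and 3 rose in WT, and 21 fell and 3 rose in KO, 22 and 24 called against 84.2% and 82.3% of all genes, of which 43.6% and 43.0% fell. The medians were -0.836 and -0.804 against -0.0367 and -0.0521 for all genes. Gas6 went from 373 ± 23.0 to 93.7 ± 11.02 CPM in WT, a log2 change of -1.99 ± 0.09 (edgeR adjusted p = 1.45e-15). Entpd1 changed by -2.93 ± 0.12 (edgeR adjusted p = 1.41e-15) and Rgs10 by -1.82 ± 0.09 (edgeR adjusted p = 6.88e-15) on the log2 scale in WT. None of the 29 was called between untreated KO and WT by edgeR, nor did any have an unadjusted p below 0.05.

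**Figure D5:**
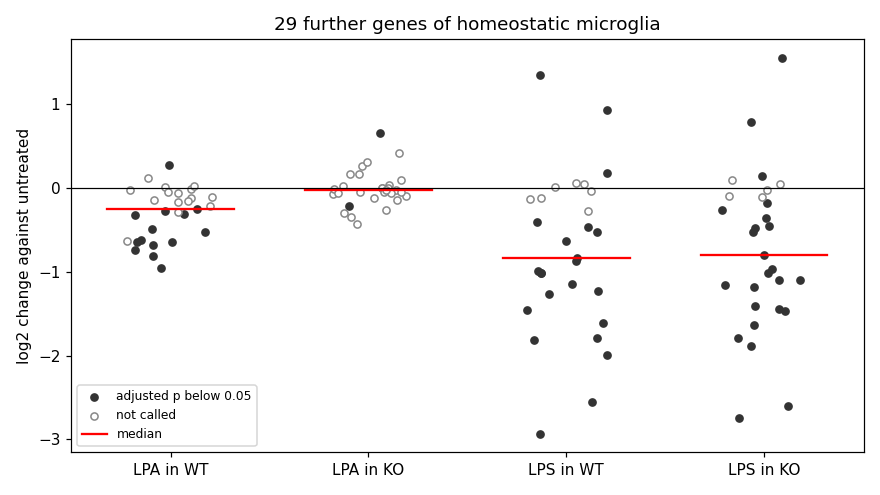
Log2 change of the 29 further genes of resting microglia in 4 comparisons, filled points for an edgeR adjusted p below 0.05, a red line at the median, and a random sideways offset. With LPA in WT 13 fell and 1 rose around a median of -0.249, with LPA in KO 1 did each, and with LPS 19 and 21 fell in WT and KO.

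Genes of activated, disease-associated microglia showed no common direction. Of 20, all measured, 4 rose and 3 fell with LPA in WT (7 and 4 with the block, 6 and 3 without WT LPA replicate 3), and 8 rose and 9 fell with LPS in each genotype (6 and 11 in WT and 5 and 11 in KO with library totals). The 7 of 20 called for LPA in WT are below the 44.6% of all genes, and the 17 of 20 for LPS are near the 84.2% and 82.3%. With library totals 2387 of the 11590 genes rose and 7847 fell with LPS in WT, and 2428 and 7627 in KO. Csf1, the growth factor of macrophages, rose by 0.67 ± 0.14 on the log2 scale with LPA in WT (edgeR adjusted p = 0.000671) and Clec7a, the beta-glucan receptor, fell by 0.68 ± 0.12 (edgeR adjusted p = 0.000124). With LPA in KO 1 of the 20 rose and 1 fell, against 2.62% of all genes called.

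Resident macrophage genes of other tissues were measured in 12 of 18 cases, and 2 rose and 3 fell with LPA in WT (2 and 6 with the block), 5 of 12 against 44.6% of all genes. Marco, a scavenger receptor, rose by 1.81 ± 0.38 (edgeR adjusted p = 0.000935) and Mrc1, the mannose receptor, fell by 0.88 ± 0.08 (edgeR adjusted p = 1.09e-07) on the log2 scale. Mrc1 also fell in KO, by 0.53 ± 0.08 (edgeR adjusted p = 0.000486), as the only gene of the 12 called there, where 2.62% of all genes were called. With LPS, 6 rose and 4 fell in WT and 4 rose and 4 fell in KO, which became 4 and 4 in WT and 3 and 5 in KO with library totals in place of TMM. The 10 of 12 called in WT are near the 84.2% of all genes, and the 8 of 12 in KO are below 82.3%. Of all genes 40.6% rose and 43.6% fell with LPS in WT, and 39.3% and 43.0% in KO. With library totals 2387 of the 11590 genes rose and 7847 fell in WT, and 2428 and 7627 in KO.

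Blood monocyte genes, of which 14 of 14 were measured, gave 3 that rose and 1 that fell with LPA in WT (3 and 4 with the block, 3 and 2 without WT LPA replicate 3). The 4 of 14 called are below the 44.6% of all genes, and the 10 of 14 called for LPS in WT are below 84.2%. Vcan, a proteoglycan of classical monocytes, rose by 1.39 ± 0.20 (edgeR adjusted p = 2.57e-05) and Ccr2, their chemokine receptor, fell by 0.75 ± 0.24 (edgeR adjusted p = 0.0152) on the log2 scale. With LPA in KO 0 of 14 were called by edgeR, 2 at an unadjusted p below 0.05 and 1 by edgeR with the block. Of all genes 2.62% were called there by edgeR, and 554 of the 11590 with the block. With LPS, 8 rose and 2 fell in WT and 6 rose and 2 fell in KO, which became 5 and 4 in WT and 3 and 5 in KO with library totals. The 8 of 14 called for LPS in KO are below the 82.3% of all genes. Of all genes 40.6% rose and 43.6% fell with LPS in WT, and 39.3% and 43.0% in KO. With library totals 2387 of the 11590 genes rose and 7847 fell in WT, and 2428 and 7627 in KO, so the whole table shifted towards falls.

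TGF-beta feedback and target genes, 13 of 14 measured, gave 5 that rose and 1 that fell with LPA in WT, and 5 that rose with none that fell in KO. The 6 of 13 called in WT (4 rises and 1 fall without WT LPA replicate 3) are near the 44.6% of all genes, and the 5 of 13 in KO stand beside 2.62%. The LPA effect was higher in KO in 2 of the 13 and lower in 1, against 4 and 1 with the block and 5 and 1 without WT LPA replicate 3. Of all genes 28.5% were called for it in the main fit. The block called 4328 of the 11590 genes, and 4632 were called without that library. Skil, a SMAD corepressor that TGF-beta induces, rose by 0.82 ± 0.08 in WT (edgeR adjusted p = 7.76e-08) and by 0.68 ± 0.08 in KO (edgeR adjusted p = 2.44e-05) on the log2 scale. Ski, another SMAD corepressor, fell by 0.34 ± 0.06 in WT (edgeR adjusted p = 0.000106) and rose by 0.25 ± 0.06 in KO (edgeR adjusted p = 0.0194), and its LPA effect was 0.60 ± 0.08 larger in KO than in WT (edgeR adjusted p = 5.91e-05). With LPS, 5 rose and 6 fell in either genotype, 11 of 13 against 84.2% and 82.3% of all genes.

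Since stromal cells and osteoblasts also make Olfml3 and Tmem119, markers of such cells are set beside them. Of 12 stromal markers 5 were measured, Col1a1, Col1a2, Pdgfrb, Acta2 and Sparc, and they summed to 2.65 to 4.10 CPM in KO Cont and 5.10 to 14.4 CPM in KO LPA, so the stromal sum moved with Olfml3 in KO. In WT the sum was 3.67 to 7.71 CPM untreated and 2.89 to 9.02 CPM with LPA, overlapping ranges, while Olfml3 rose. WT LPA replicate 1 had the lowest stromal sum of the WT libraries, 2.89 CPM, with 17.2 CPM of Olfml3. With LPS the sum was 9.73 to 27.2 CPM, of which Pdgfrb alone averaged 9.16 ± 3.57 in WT and 9.43 ± 1.45 in KO, against 1.20 ± 0.440 and 1.04 ± 0.253 untreated. The other 4 stromal markers had lower means in KO LPS than in KO Cont, as Olfml3 did, but with SDs that overlapped. Col1a1 averaged 0.512 ± 0.304 CPM in KO Cont, 2.10 ± 1.35 in KO LPA and 0.292 ± 0.213 in KO LPS. In WT the same 4 had higher means with LPS than untreated, again with overlapping SDs, while Olfml3 fell. Col1a1 averaged 1.09 ± 0.542 CPM in WT Cont and 1.54 ± 1.57 in WT LPS. No stromal marker measured was at 0 in KO LPA. Of 7 osteoblast markers Runx2 and Spp1 were measured, and they summed to 175 to 259 CPM in KO Cont and 205 to 277 in KO LPA, nearly all of it Spp1. Runx2 averaged 4.22 ± 0.850 CPM in KO Cont, 6.54 ± 1.28 in KO LPA and 1.96 ± 0.156 in KO LPS, and 3.88 ± 0.647, 3.38 ± 0.549 and 1.55 ± 0.340 in the WT groups. Of 7 endothelial markers 5 were measured, and they summed to 157 to 176 CPM in KO Cont and 149 to 168 in KO LPA. Pecam1 averaged 6.78 ± 2.64 CPM in KO Cont and 16.6 ± 7.21 in KO LPA, and Kdr 9.96 ± 3.11 and 6.08 ± 1.13. Vwf averaged 31.65 ± 10.1 and 29.96 ± 13.9 CPM, Eng 116.5 ± 10.1 and 108 ± 6.73, and Cdh5 0.154 ± 0.0974 and 0.161 ± 0.102. Pecam1 was thus the only endothelial marker with a clear rise. None of 8 T, NK and B cell markers was measured. The part of other cells in the KO values of Olfml3 and Tmem119 was not tested.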

How the data were processed

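RNA was measured in 24 libraries, 4 in each of 6 groups taken from the sample titles. Stranded mRNA libraries were read as paired 51-base reads, per the labels' protocols, and aligned with STAR 2.5.2a to mm10, per the submitters' processing notes. How reads were counted, with which strand setting and annotation, is not given in the sources used here. The deposited table holds raw counts per gene, which the authors made, and a deposited gene length, a measure in bases of other kind whose origin is not stated and which served only for levels per kb.

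The 11590 genes all passed filterByExpr, and the smallest gene total was 170 counts. edgeR 4.0.16 (R 4.3.3, limma 3.58.1) fitted 1 mean per group over 24 libraries with TMM factors (0.739 to 1.18) and a robust quasi-likelihood F test, adjusted by Benjamini-Hochberg over all genes and called below 0.05. The SE is the log2 change over the root of F. The code was tested on simulated data. Alternatives were DESeq2 1.42.0, RLE factors, library totals, other filters, fits of the compared groups only, thinned counts, a replicate block and leaving out each library.

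Same-numbered libraries correlated in their deviations from group means at over 0.1 in all 4 WT Cont and LPA pairs and all 12 KO pairs, but not in every WT pair with LPS (0.0692 to 0.299) or between genotypes (2 of 36 pairs). The members, lists, motifs and tests were chosen with earlier results of these data known. Named were the 5 genes, from each list up to 4 called genes with the smallest p and a mean of at least 2 CPM, and the 3 genes most like each of the 5 (log2 CPM, prior count 2). Not every gene that this rule names is reported.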

Additional observations from a re-analysis of the deposited data

Results flagged for a closer look

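In 3 of the 30 groups of 4 libraries examined for the 5 genes, 1 library stood apart from the other 3 by more than Dixon's 95% limit, and chance alone gives such a gap in about 1 group in 20. Tmem119 in WT LPA replicate 2 measured 3.597 CPM, and its gap to the next library was 0.83 of the group's range. Tmem119 in KO Cont replicate 1 measured 1.337 CPM, at 0.833 of the range, and Slco2b1 in WT LPS replicate 4 measured 1.408 CPM, at 0.898 of the range. All 3 were the highest of their group.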

How the results depend on the processing

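Of the 360 log2 changes of the 5 genes recomputed under another setting, 350 kept their direction, side of the threshold or size. So did 424 of the 440 recomputed without 1 library. Both tallies include the comparisons with LPA-treated KO cells, which carry no test, so no side of a threshold could change there. The numbers of genes called and the nearest genes are outside these tallies, and their shifts are listed further below. The direction and the call of Olfml3 with LPA and LPS in WT, of Gpr34 and Slco2b1 with LPA in WT and with LPS in both genotypes, and of Tmem119 with LPA in WT, held under every setting and every left-out library. Cx3cr1 with LPA in WT passed with the replicate block (0.90) and ranged from 0.57 to 1.23 without 1 library. The block changed no other call of the 5 genes. Tmem119 with LPS in WT was -0.61 with library totals and 0.032 with thinned counts, and -0.26 to 0.053 without 1 library. In KO it passed with RLE factors (0.51), the compared groups only (0.47) and thinned counts (0.56), and was -0.017 with library totals. In untreated KO against WT, Gpr34 was 0.026 with library totals, 0.0024 with at least 50 counts in at least 4 libraries and 0.0024 with the compared groups only, and without 1 library it ranged from -0.11 to 0.12, Slco2b1 from -0.18 to 0.059 and Cx3cr1 from -0.65 to 0.032. In KO against WT with LPS, leaving out KO LPS replicate 4 gave the lowest values of Gpr34 (-0.12 to 0.53), Slco2b1 (-0.0017 to 0.38) and Cx3cr1 (-0.41 to 0.52), and the LPS effect, KO minus WT, ranged from -0.12 to 0.53 for Gpr34 and from -0.18 to 0.90 for Cx3cr1. The number of genes called for LPA in KO, 304, became 461 by DESeq2, 554 with the replicate block and 168 to 310 without 1 library. For KO against WT with LPS, 330 became 581 by DESeq2, 131 with the compared groups only, 0 with the block (whose numbers do not pair the genotypes) and 65 to 577 without 1 library. For the LPS effect, KO minus WT, 0 became 17 by DESeq2 and 0 to 1 without 1 library. With library totals the split of higher and lower calls was 2077 and 3082 for LPA in WT, 2387 and 7847 for LPS in WT, 2428 and 7627 for LPS in KO, 381 and 106 for KO against WT with LPS, and 1981 and 1325 for the LPA effect, KO minus WT. Of the 3 nearest genes, 1 of Tmem119, 1 of Slco2b1 and 0 of Cx3cr1 stayed when the 6 group means were used. The cause of these shifts was not tested. Depth limits the LPS values of Gpr34 (4 to 16 counts) and Slco2b1 (11 to 40 counts). It also limits Tmem119 in KO, with 21 to 30 counts per library untreated, 28 to 68 with LPA and 20 to 26 with LPS.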
